A study of Homo sapiens with 12 samples.

Results

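The S100 proteins examined here are 10 members of a family of small calcium-binding proteins: S100A2, S100A4, S100A6, S100A7, S100A8, S100A9, S100A10, S100A12, S100A14 and S100P. A probe set is a group of short probes whose signals are summarised as 1 value, and each was taken if the platform annotation gave it one of these symbols and no other. That gave 13 probe sets of 54675 on the array. S100A6, S100A8 and S100A10 had 2 each and the other 7 genes 1 each. All 13 entered the tests, since no filter on low values was used, and a gene with 2 probe sets is described by the brighter one unless stated otherwise.

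The cells were MCF-10A, an established line of breast epithelium that forms no tumours, and RNA was read on 12 arrays, 3 for each of 4 groups. All groups had been infected with a retrovirus for 48 h. The controls carried the vector alone, and the others carried NICD, which is the receptor's free intracellular domain, Notch1 L1601P+ΔP, or wild-type full-length Notch1. The L1601P change is in the heterodimerisation domain, where the receptor subunits are joined, and ΔP stands for loss of the C-terminal PEST region that shortens the life of the intracellular domain. The NICD samples carry gfp in their descriptions, and the sources used here do not give the role of GFP in that construct. The labels call the replicates biological without saying whether cultures and infections were separate, and p-values cover only the spread among these arrays, which may be technical. The share of cells that carried each construct is not given either, and in bulk RNA a larger share of responding cells and more RNA per cell cannot be told apart.

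S100 proteins bind calcium through EF-hand motifs, work mostly as dimers and change shape on binding so that they can grip partner proteins. Most of their genes lie side by side in the epidermal differentiation complex on chromosome 1, while S100P lies on chromosome 4. Some members act mainly inside the cell on the cytoskeleton and on annexins, and others are released by stressed epithelium and myeloid cells as alarmins that bind zinc or manganese and attract leukocytes. Notch signalling releases the intracellular domain, which joins the DNA-binding protein RBPJ at target genes, and in stratified epithelia it is known for promoting differentiation.

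The median log2 signal of an array lay between 5.64 and 5.70, the lower quartiles between 4.12 and 4.19 and the highest values between 14.95 and 15.01. Replicate arrays correlated at 0.9952 to 0.9976 across probe sets, and no pair was identical. Genes chosen as a sign of Notch activity rose with NICD in 6 of 8 cases and with Notch1 L1601P+ΔP in 5 of 8. With full-length Notch1, limma called 0 of 8, 1 being higher at an unadjusted p under 0.05. In that comparison 0.0202% of all genes were called and 4.55% met that unadjusted p. Of 10 epithelial markers 7 were tested, and all had group means above 5 in every group. Against vector, limma called 2 of the 7 higher and 3 lower with NICD, and 2 higher and 1 lower with Notch1 L1601P+ΔP. Of all genes, 8.46% were called higher and 15.8% lower with NICD, and 1.64% and 1.75% with Notch1 L1601P+ΔP. Below, levels are log2 signals, group means carry the SD over 3 arrays, and differences are log2 differences with the standard error of the fit. Called means that limma's p, adjusted by Benjamini-Hochberg over all probe sets tested, was under 0.05. The signals of different probe sets do not rank the abundance of their transcripts, and brighter or dimmer refers to signal alone.

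With NICD, 12 of the 13 probe sets were called against vector, 9 higher and 3 lower, against a background of 19.3% of all probe sets called, 6.75% higher and 12.6% lower. By gene, 7 of 10 rose, 2 fell and 1, S100A2, was not called. In the first group were the secreted alarmins S100A7, S100A8, S100A9 and S100A12, the motility-linked S100A4, S100P and S100A10. Those that fell were S100A14 and S100A6. The median difference of the 10 genes was 0.62, beside -0.02 for all genes. For all 13 probe sets the NICD arrays lay wholly above or wholly below the vector arrays, beside a background of 33% of probe sets. Cyclic loess scaling moved the share of higher among all called probe sets from 34.9% to 49.1%, and no called member changed direction under it.

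**Figure D1:**
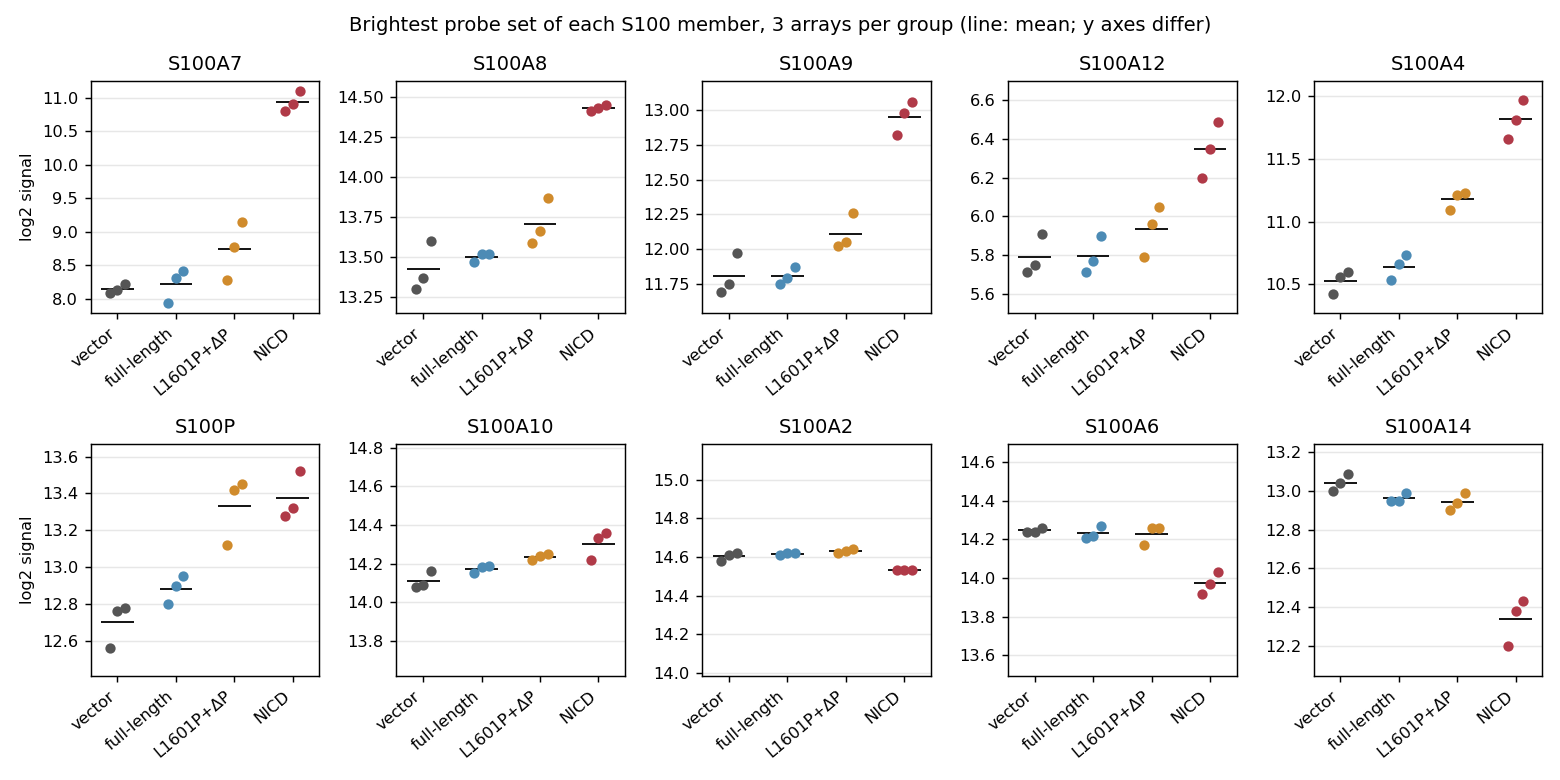
Log2 signal (y axis, a separate scale in each panel) of the brightest probe set of each S100 gene in the 4 groups (x axis), with 1 point per array and a line at the mean of 3. S100A7 stood at 8.09 to 8.22 with vector and 10.81 to 11.10 with NICD, S100P overlapped between Notch1 L1601P+ΔP and NICD, and S100A14 and S100A6 were lower with NICD than in the other groups.

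S100A7, or psoriasin, is a zinc-binding antimicrobial protein of inflamed skin and of some breast carcinomas. Its log2 signals were 8.22, 8.13 and 8.09 with vector, 7.94, 8.41 and 8.31 with full-length Notch1, 9.15, 8.78 and 8.29 for Notch1 L1601P+ΔP, and 10.91, 11.10 and 10.81 with NICD. The NICD arrays stood above all others, and the Notch1 L1601P+ΔP arrays were the most spread. The rise with NICD was 2.80 ± 0.18, or 6.95-fold (adjusted p = 1.37e-07). NICD was also higher than Notch1 L1601P+ΔP by 2.21 ± 0.18 (adjusted p = 2.47e-06) and than full-length Notch1 by 2.72 ± 0.18. The difference of Notch1 L1601P+ΔP from vector, 0.59 ± 0.18, was not called (adjusted p = 0.123). It was called without the array labelled Notch1 L1601P+ΔP replicate 3, at 0.81 (adjusted p = 0.0164), and so was the difference from full-length Notch1, at 0.74 (adjusted p = 0.0349).

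S100A8 and S100A9 are the subunits of calprotectin, which starves microbes of metals, and their genes are close neighbours. S100A8 read 13.60, 13.37 and 13.30 with vector, 13.52, 13.52 and 13.47 with full-length Notch1, 13.87, 13.66 and 13.59 for Notch1 L1601P+ΔP, and 14.45, 14.43 and 14.41 with NICD. S100A9 read 11.97, 11.75 and 11.69 with vector, 11.79, 11.87 and 11.75 with full-length Notch1, 12.26, 12.02 and 12.05 for Notch1 L1601P+ΔP, and 12.98, 13.06 and 12.82 with NICD. For both genes the NICD arrays lay above every other array, while the vector and full-length Notch1 arrays overlapped. S100A8 rose with NICD by 1.0 ± 0.09 (adjusted p = 2.55e-06) and S100A9 by 1.15 ± 0.09 (adjusted p = 1.23e-06). NICD exceeded Notch1 L1601P+ΔP by 0.72 ± 0.09 for S100A8 and by 0.85 ± 0.09 for S100A9 (adjusted p = 8.86e-05 and 3.81e-05). The differences of Notch1 L1601P+ΔP from vector were 0.28 ± 0.09 and 0.31 ± 0.09, neither of them called (adjusted p = 0.129 and 0.122), and the S100A8 arrays overlapped.

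S100A12 is a further alarmin known from neutrophils. It read 5.75, 5.91 and 5.71 with vector, 5.71, 5.90 and 5.77 with full-length Notch1, 6.05, 5.96 and 5.79 for Notch1 L1601P+ΔP, and 6.35, 6.49 and 6.20 with NICD. It rose with NICD by 0.56 ± 0.09 (adjusted p = 0.000854) and was higher there than with Notch1 L1601P+ΔP by 0.42 ± 0.09 (adjusted p = 0.0103). Its difference of 0.14 ± 0.09 between Notch1 L1601P+ΔP and vector was not called. S100A12 was dim, with 45.2% of probe sets brighter over the 12 arrays. Whether its signal lies above background was not tested. So all 4 alarmins rose with NICD, S100A12 from this low signal. None of them was called with Notch1 L1601P+ΔP in the fit of all 12 arrays.

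Neutrophils and monocytes are the other known source of S100A8, S100A9 and S100A12. Among all genes 24.2% were called with NICD and 34.9% had an unadjusted p under 0.05. Of 12 marker genes of neutrophils and monocytes 11 were tested, and limma called 0 with NICD (unadjusted p under 0.05: 0 up, 2 down). Their summed linear signal was 387 to 398 on the vector arrays and 370 to 402 on the NICD arrays, and 6 of 11 had a mean below 5 in each group. PTPRC, the pan-leukocyte surface phosphatase, stood at 3.63 with vector and differed by 0.00 with NICD. SPI1, a myeloid transcription factor, stood at 4.08 and also differed by 0.00.

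S100A4, a partner of non-muscle myosin linked to cell motility and used as a fibroblast marker, was one of the 2 members that also rose with Notch1 L1601P+ΔP. It read 10.60, 10.42 and 10.56 with vector, 10.73, 10.53 and 10.66 with full-length Notch1, 11.23, 11.09 and 11.21 for Notch1 L1601P+ΔP, and 11.97, 11.81 and 11.66 with NICD. The last 2 groups did not overlap with each other or with the rest. The rise was 0.65 ± 0.09 with Notch1 L1601P+ΔP (adjusted p = 0.00127) and 1.28 ± 0.09 with NICD (adjusted p = 2.62e-07). NICD was higher than Notch1 L1601P+ΔP by 0.63 ± 0.09 (adjusted p = 3e-04), and Notch1 L1601P+ΔP higher than full-length Notch1 by 0.54 ± 0.09 (adjusted p = 0.00698). Of 8 fibroblast markers limma called 1 higher and 0 lower with NICD, beside 8.46% of all genes called higher and 15.8% lower. The one called was the proteoglycan DCN, which was higher by 0.36. At an unadjusted p under 0.05, 2 were higher and 0 lower, beside 34.9% of all genes. The median of the 8 was 0.11, beside -0.02 for all genes. COL1A2 and PDGFRB differed by 0.01 and -0.05. The summed linear signal of the list was 2210 to 2350 with vector and 2730 to 2900 with NICD, and its part in the S100A4 result was not tested.

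S100P, first found in placenta and a partner of ezrin, was the other member that rose with Notch1 L1601P+ΔP. It read 12.76, 12.78 and 12.56 with vector, 12.80, 12.95 and 12.90 with full-length Notch1, 13.42, 13.45 and 13.12 for Notch1 L1601P+ΔP, and 13.32, 13.52 and 13.28 with NICD. The arrays of the last 2 groups overlapped and lay above the others. S100P rose by 0.63 ± 0.10 with Notch1 L1601P+ΔP (adjusted p = 0.00419) and by 0.67 ± 0.10 with NICD (adjusted p = 0.000289). Between these 2 groups the difference was 0.05 ± 0.10, with a 95% interval of -0.17 to 0.26 (adjusted p = 0.831). For S100A4 the interval of the same difference was 0.44 to 0.82, for S100A9 0.65 to 1.05 and for S100A7 1.82 to 2.60. Against full-length Notch1, S100P was higher by 0.44 ± 0.10 with Notch1 L1601P+ΔP (adjusted p = 0.0454). That call was lost on leaving out any one of the full-length Notch1 arrays or Notch1 L1601P+ΔP replicate 1 or 2, in a fit of only these 2 groups and under trend and robust moderation of the variance, and its adjusted p went up to 0.185 over all alternatives.

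Notch1 L1601P+ΔP against vector asked how far the family differs with the mutated receptor. In all, 2 of the 13 probe sets were called, both higher, beside 2.39% of all probe sets called and 1.1% called higher. The median over the 10 genes was 0.21, beside -0.01 for all genes. At an unadjusted p under 0.05 there were 7 of 13, beside 16.4% of all probe sets. NICD against Notch1 L1601P+ΔP gave 8 of 13 called, 6 higher and 2 lower, beside 13% of all probe sets, 6.04% higher and 7.01% lower. Notch1 L1601P+ΔP against full-length Notch1 gave 2 of 13, beside 1.63%.

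Full-length Notch1 against vector gave 0 of 13 probe sets called by limma, and 0 of 13 at an unadjusted p under 0.05. The background was 0.011% of all probe sets called and 5.13% at that unadjusted p. Differences of the 10 genes ran from -0.08 for S100A14 to 0.18 for S100P, whose 95% interval was -0.03 to 0.40. For S100A7 the interval was -0.31 to 0.46 and for S100A9 -0.20 to 0.20. NICD against full-length Notch1 gave 11 of 13 called, 8 higher and 3 lower, beside 18.2% of all probe sets, 7.14% higher and 11.1% lower. It shares the NICD arrays with the comparison against vector.

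**Figure D2:**
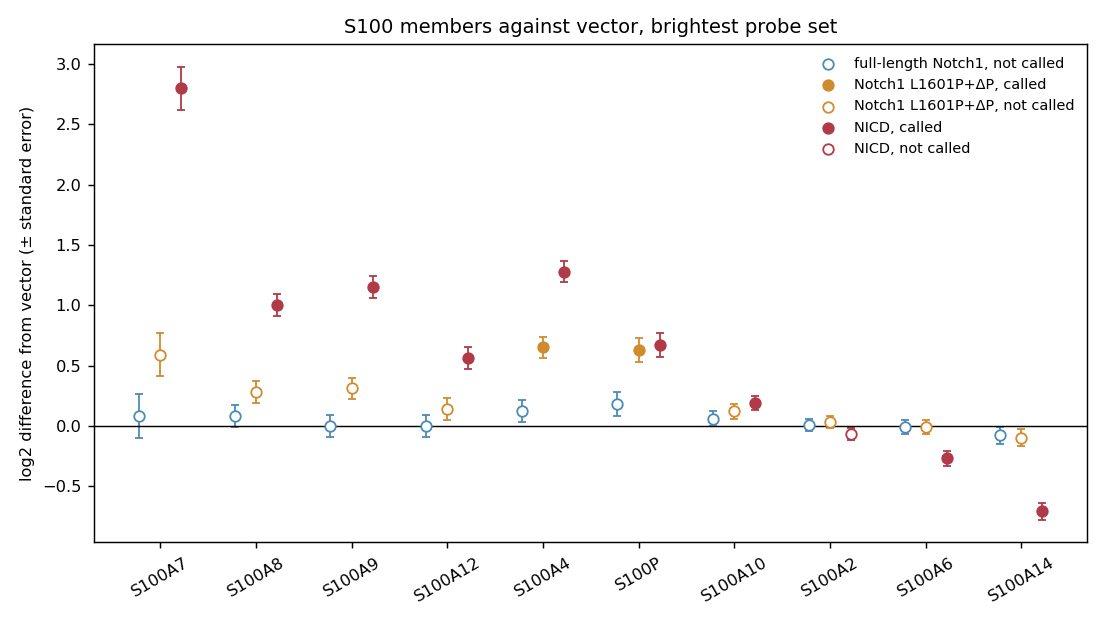
Log2 difference from vector (y axis, with standard error bars) of the brightest probe set of each S100 gene (x axis) for the 3 Notch1 groups, with filled points for called differences. NICD ran from -0.71 for S100A14 to 2.80 for S100A7, S100A4 and S100P were also filled with Notch1 L1601P+ΔP, and every full-length Notch1 point was open.

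S100A14 and S100A6 went the other way with NICD. S100A14, a member found in epithelia, read 13.09, 13 and 13.04 with vector, 12.99, 12.95 and 12.95 with full-length Notch1, 12.99, 12.90 and 12.94 for Notch1 L1601P+ΔP, and 12.20, 12.43 and 12.38 with NICD. It fell by 0.71 on the log2 scale with NICD (SE 0.07, adjusted p = 5.72e-06), while Notch1 L1601P+ΔP differed by -0.10 and was not called. S100A6, or calcyclin, a partner of annexins, read 14.24, 14.24 and 14.26 with vector and 13.97, 14.03 and 13.92 with NICD. It fell by 0.27 (SE 0.06, adjusted p = 0.00337). The Notch1 L1601P+ΔP arrays read 14.26, 14.26 and 14.17 and those of full-length Notch1 14.27, 14.21 and 14.22, both overlapping vector. For both genes NICD was also lower than Notch1 L1601P+ΔP (-0.60 ± 0.07 for S100A14 and -0.26 ± 0.06 for S100A6, adjusted p = 4.17e-05 and 0.00717). For S100A6 that call was lost in a fit of only these 2 groups (adjusted p = 0.0507).

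S100A10 and S100A2 had the smallest differences with NICD. S100A10, which forms a tetramer with annexin A2 and binds plasminogen, read 14.09, 14.16 and 14.08 with vector, 14.19, 14.15 and 14.18 with full-length Notch1, 14.22, 14.24 and 14.25 for Notch1 L1601P+ΔP, and 14.33, 14.36 and 14.22 with NICD. Its rise with NICD, 0.19 ± 0.06 (adjusted p = 0.0322), was lost without vector replicate 1 or 3, without NICD replicate 1 or 2, with the replicate block and in a fit of only these 2 groups, with adjusted p up to 0.117 over all alternatives. S100A2, a nuclear member known as a p53 family target in basal epithelium, read 14.53 on all 3 NICD arrays and 14.62, 14.61 and 14.58 with vector. Its difference of -0.07 ± 0.05 was not called (adjusted p = 0.381), with a 95% interval of -0.18 to 0.04. Under trend and robust moderation of the variance S100A2 was called lower with NICD against vector (adjusted p = 0.0195), full-length Notch1 (0.00515) and Notch1 L1601P+ΔP (0.00209). The main probe sets of S100A2, S100A6, S100A8 and S100A10 read near the top of the signal scale, with 0.0421%, 0.212%, 0.361% and 0.198% of probe sets above them over the 12 arrays. Whether the signal there falls short of the RNA was not tested.

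The second probe sets of S100A8, S100A10 and S100A6 were dimmer and moved the same way with NICD. That of S100A8 read 6.58, 6.53 and 6.59 with vector and 7.54, 7.59 and 7.09 with NICD, a rise of 0.84 ± 0.18 (adjusted p = 0.00427). With Notch1 L1601P+ΔP it read 6.91, 6.34 and 7.0, the widest spread of its groups, and differed by 0.18 ± 0.18. The second S100A10 probe set rose with NICD by 0.29 ± 0.07 (adjusted p = 0.0135). It read 8.76, 8.80 and 8.84 with Notch1 L1601P+ΔP and 8.56, 8.62 and 8.43 with vector, and that difference of 0.26 ± 0.07 was not called (adjusted p = 0.095). The second S100A6 probe set fell by 0.34 with NICD (SE 0.06, adjusted p = 0.00179), from 6.69, 6.60 and 6.73 to 6.40, 6.29 and 6.31. Which part of each transcript these probe sets read was not analysed here.

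**Figure D3:**
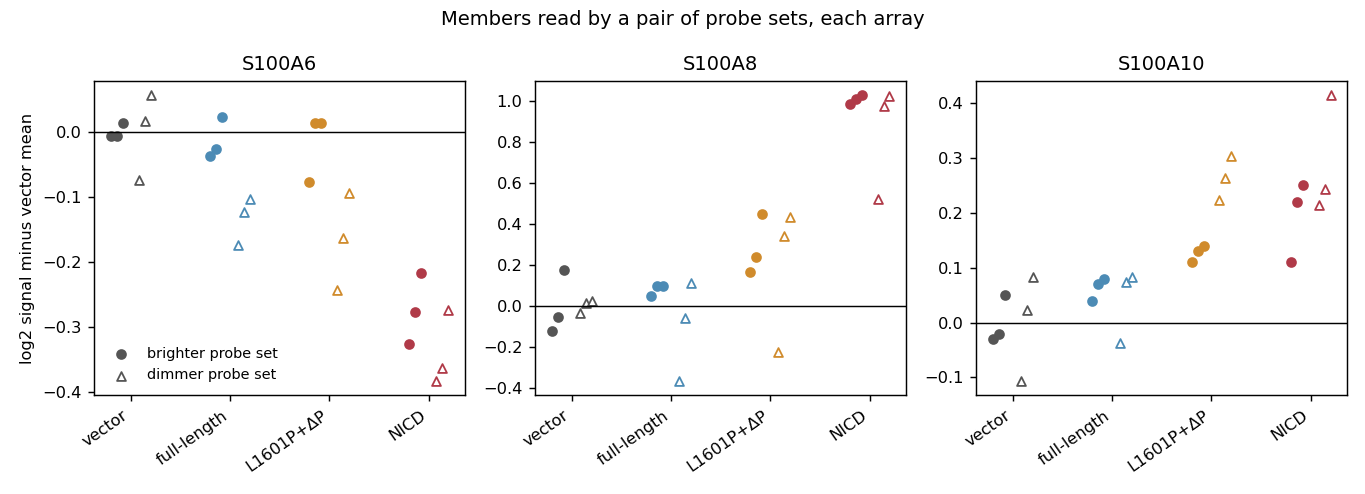
Log2 signal of each array minus the vector mean of the same probe set (y axis) for the genes read by 2 probe sets, in the 4 groups (x axis), with filled circles for the brighter and open triangles for the dimmer one. Both probe sets of S100A8 and of S100A10 were higher with NICD than with vector, and both of S100A6 were lower.

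The promoters of the members that rose most are shown because the intracellular domain acts through RBPJ, whose binding motif has the core TGGGAA. RefSeq promoters (GRCh38.p14), each running from 250 bases before to 50 bases after a transcript start, were matched by symbol for all 10 genes, 13 promoters in all. The core was searched on both strands, and with a leading G (GTGGGAA), a longer form that contains it. The motifs were chosen after the expression values were seen, so the shares given here only describe these genes. The core occurred in 6 of the 10 genes, beside 28.1% of all genes with a promoter in the table. These were S100A4, S100A7, S100A8, S100A9, S100A2 and S100A14. Of these, 4 rose with NICD, 1 fell and S100A2 was not called. Counted by promoter, the core was in 6 of 13, beside 24% of all promoters. It was in 1 of the 3 promoters of S100A8 and in 1 of the 2 of S100A2. The longer form occurred in 1, S100A8, beside 7.62% of all genes. The stretches below run 5′ to 3′ on the strand of the gene, with the match in capitals.
S100A8, chr1:153391326-153391392, minus strand: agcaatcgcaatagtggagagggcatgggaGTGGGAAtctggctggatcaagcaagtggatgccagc
S100A9, chr1:153357645-153357710, plus strand: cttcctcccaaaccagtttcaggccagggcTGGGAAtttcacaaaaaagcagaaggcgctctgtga
S100A7, chr1:153460666-153460731, minus strand: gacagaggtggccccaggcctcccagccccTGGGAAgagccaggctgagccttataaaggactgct
S100A4, chr1:153545931-153545996, minus strand: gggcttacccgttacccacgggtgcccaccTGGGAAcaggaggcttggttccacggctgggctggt

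The match began 174 bases before the most upstream S100A8 start, 179 before that of S100A9, 160 before that of S100A4 and 50 before that of S100A7. S100A7 held a further match on the opposite strand, within the 50 bases after its start. In S100A14, which fell, the core lay on the opposite strand, 197 bases before the start:
S100A14, chr1:153616487-153616552, minus strand: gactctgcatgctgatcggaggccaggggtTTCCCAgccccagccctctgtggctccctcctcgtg
No match lay in the promoters of S100P, S100A12, S100A10 or S100A6. The AP-1 motif TGANTCA, searched in the same way, occurred in 2 of the 10 genes, S100A2 and S100A12, beside 9.37% of all genes. A match of letters is not a measured binding site, and binding was not measured here.

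The other S100 genes on the array were read on the brightest probe set of each gene, a set in which 24.2% of genes were called with NICD, 8.46% higher and 15.8% lower. The shares at an unadjusted p under 0.05 were 34.9% with NICD and 18.9% with Notch1 L1601P+ΔP. Of the 10, 1 rose and 2 fell. S100A3, a zinc-binding protein of the hair cuticle, rose from 7.60 with vector to 9.68 with NICD, by 2.08, more than any of the 10 members except S100A7. It also rose with Notch1 L1601P+ΔP, by 0.64. S100A13, which takes part in unconventional secretion, differed by -0.28 and S100A16 by -0.19 with NICD, both called. S100A11 and S100A1 both differed by -0.07 and were not called. Of these, only S100A3 was called with Notch1 L1601P+ΔP, where 3.4% of genes were, 1.64% higher and 1.75% lower. Full-length Notch1 gave 0 calls by limma, where 0.0202% of genes were called, and 2 were higher at an unadjusted p under 0.05, which 4.55% of genes met there. S100A7A, a close copy of S100A7 beside it on the chromosome, was read by 2 probe sets, of which the brighter differed by 0.05 with NICD and the dimmer rose from 4.37 to 5.18 (adjusted p = 0.000309). Signal from S100A7 and S100A7A may not be fully separable on their probe sets.

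In their RefSeq order along chromosome 1 the genes that rose with NICD did not form an unbroken block. S100A9, S100A12 and S100A8 stood next to each other, with no other protein-coding gene between them, and all 3 rose. S100A7A and S100A7 followed, then S100A6, which fell, S100A5, which was not called, S100A4 and S100A3, which rose, and S100A2, not called. S100A16, S100A14 and S100A13, next to each other further along, all fell. S100A10 and S100A11 lie apart from the rest, with 47 protein-coding genes between S100A11 and S100A9.

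**Figure D4:**
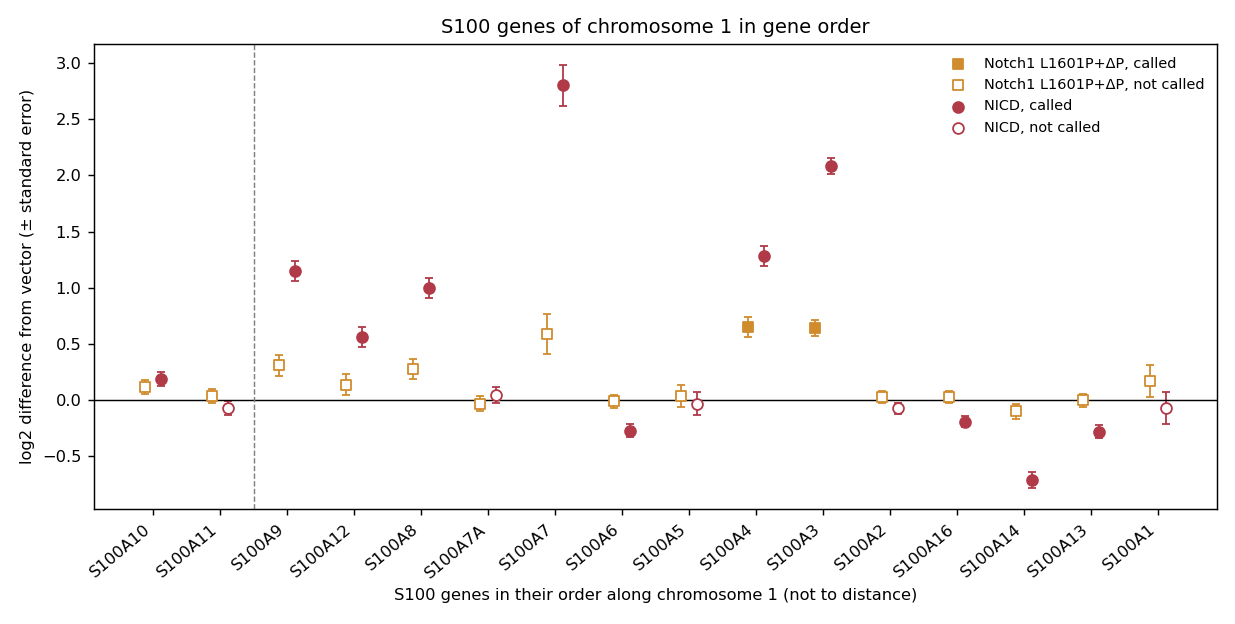
Log2 difference from vector (y axis, with standard error bars) of the S100 genes in their order along chromosome 1 (x axis, equal steps), for NICD (circles) and Notch1 L1601P+ΔP (squares), filled where called. The dashed line marks the gap of 47 protein-coding genes, the highest NICD points are S100A7 (2.80) and S100A3 (2.08), and the lowest is S100A14 (-0.71).

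Receptors and partners of S100 proteins were counted next. Of all genes, 8.46% were called higher and 15.8% lower with NICD, and 1.64% and 1.75% with Notch1 L1601P+ΔP. Of 6 receptors of released S100 proteins, 0 rose and 1 fell with NICD by limma. At an unadjusted p under 0.05, 1 was up and 2 were down, beside 34.9% of all genes. The one called lower was BSG, a surface glycoprotein that binds S100A9, from 10.30 to 9.72 (-0.58). TLR4 and AGER, the best known receptors of S100A8, S100A9 and S100A12, both differed by 0.01 with NICD, from 4.93 and 5.88. With Notch1 L1601P+ΔP limma called 0 of 6. At an unadjusted p under 0.05, which 18.9% of all genes met there, 1 was higher. It was TLR4, by 0.24 (limma adjusted p = 0.154). Of 18 partner genes, 15 of intracellular proteins and 3 of the secreted plasminogen system (PLG, PLAT and PLAU), 17 were tested, and 1 rose and 6 fell with NICD. FABP5, a fatty acid carrier that binds S100A7, rose by 1.74 with NICD and by 1.34 with Notch1 L1601P+ΔP. ANXA11, an annexin that binds S100A6, differed by -0.44, the myosin MYH10 by -0.44, the plasminogen activator PLAT by -0.43 and IQGAP1, a scaffold that binds S100P, by -0.28, all called with NICD. ANXA2, the partner of S100A10, stood at 14.53 with vector and differed by 0.03, and ANXA1 by -0.15, neither called.

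Late epidermal genes of the same chromosomal complex, some of which encode proteins fused to an S100 domain, were counted in the same way. Of 25, 19 were tested, and 2 rose and 3 fell with NICD, beside 8.46% of all genes called higher and 15.8% lower. The envelope precursor IVL rose from 6.62 by 3.25 and SPRR2B by 1.52, the latter on a probe set that may read its close copies. The cross-linked envelope proteins SPRR1A and SPRR1B differed by -0.65 and -0.60 and LCE1B by -0.55, all called. The S100-fused FLG, FLG2, TCHH, RPTN and CRNN differed by -0.08 to 0.08 from levels of 2.95 to 5.18 and were not called. Whether signals this low lie above background was not tested. With Notch1 L1601P+ΔP, 2 rose and 0 fell by limma (unadjusted p under 0.05: 4 up, 0 down), IVL by 0.83 and SPRR2B by 0.54. The shares of all genes there were 1.64% called higher, 1.75% called lower and 18.9% at that unadjusted p.

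Of 19 epithelial antimicrobial genes 14 were tested, and 5 rose and 1 fell with NICD, beside 8.46% of all genes called higher and 15.8% lower. The elastase inhibitors PI3 and SLPI rose by 2.64 and 0.79, the vitamin B12 binder TCN1 by 2.31 and the chemokine CCL20, which attracts CCR6-bearing leukocytes, by 1.06. The iron-binding LTF rose from 5.33 by 0.73. RNASE7, an antimicrobial ribonuclease of skin, differed by -1.13 from 5.79 and was called. LCN2, which captures bacterial siderophores, and CAMP, the cathelicidin gene, differed by -0.11 and 0.01 and were not called. With Notch1 L1601P+ΔP, 4 rose and 1 fell, PI3 by 1.91, TCN1 by 0.91, CCL20 by 0.53 and SLPI by 0.50, and RNASE7 differed by -0.70. The shares of all genes there were 1.64% called higher and 1.75% called lower. The median of the 14 genes was 0.08 with NICD, beside -0.02 for all genes.

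**Figure D5:**
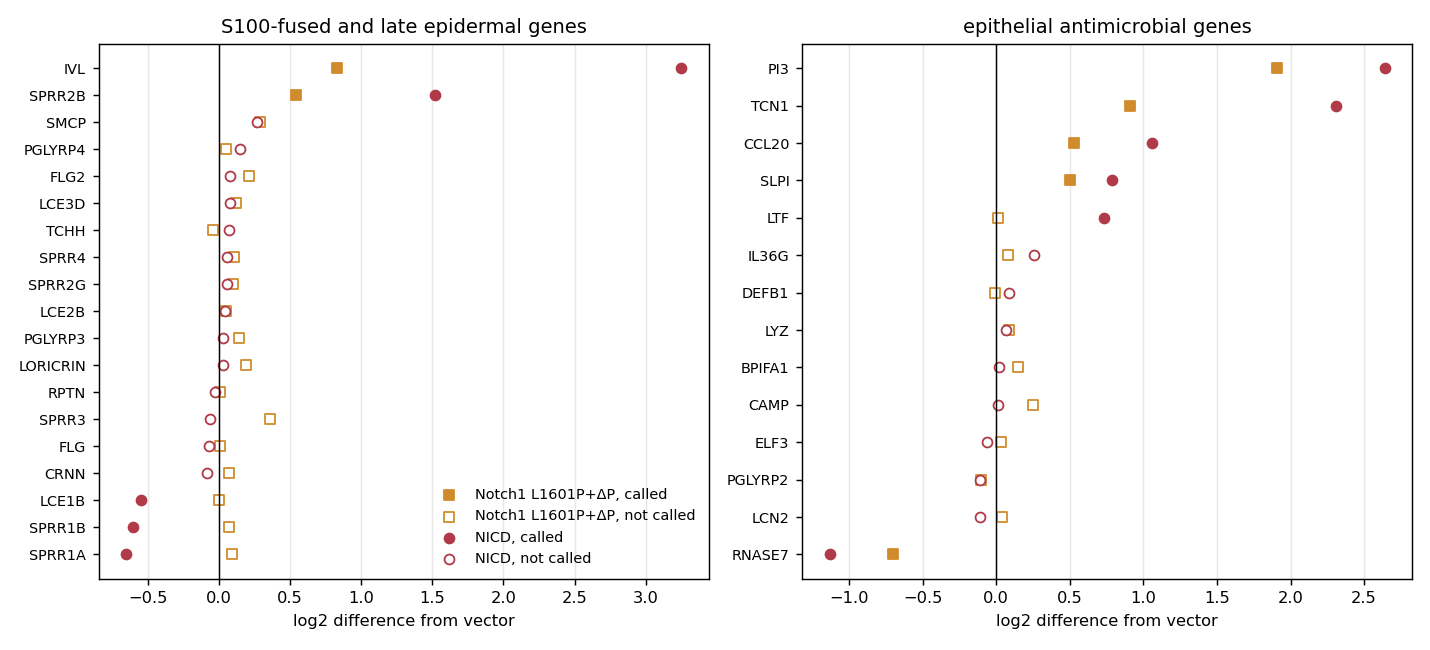
Log2 difference from vector (x axis) of late epidermal genes (left) and epithelial antimicrobial genes (right), 1 gene per line ordered by the NICD value, for NICD (circles) and Notch1 L1601P+ΔP (squares), filled where called. IVL (3.25) and PI3 (2.64) lead each panel with NICD, and RNASE7 is lowest with both constructs.

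The genes most like S100A7 and S100A4, the members with the largest NICD differences, were sought by Pearson's r over the 12 arrays among 947 other genes with a range of at least 1 on the log2 scale. For S100A7 they were CTSV (0.993), a cathepsin of skin, SLC44A2 (0.991), LYPD3 (0.99) and IL32 (0.99). For S100A4 they were PLK2 (0.986), RIPK4 (0.985), NRARP (0.984) and CDC25B (0.984). NRARP, a direct Notch target and feedback regulator, rose by 4.43 with NICD and by 2.18 with Notch1 L1601P+ΔP. These values describe 12 arrays that fall into the study's groups, so a high r mostly restates the group means.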

How the data were processed

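RNA of 12 MCF-10A samples was read on Affymetrix arrays. The authors deposited log2 signals per probe set; per the submitters' processing notes RMA and limma were used, with versions not given in the sources used here. RMA corrects background, makes the distributions of all arrays nearly alike and sums up probes, so a change shared by most genes is hidden and dim signals are compressed. Arrays have no depth, and precision is limited by their number.

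Symbols came from the platform annotation. Of 54675 probe sets, 62 controls were left out and 54613 were fitted together with limma 3.58.1 in R 4.3.3 (lmFit and eBayes, group means, all 12 arrays, 8 residual and 4.3 prior degrees of freedom). Tests were two-sided and adjusted by Benjamini-Hochberg within each of 6 comparisons, which share arrays. In gene lists the brightest probe set stands for each of 19775 genes, and listed genes without a probe set of that single symbol were not analysed here. From each list up to 4 called genes per direction with the largest change were named; a gene named that was not called, or named beyond these, was chosen after its values were seen, as were the promoter motifs. S100 genes and lists were chosen with earlier results of these data known. The fit was also run on simulated data with independent noise, which checks the code and not the results above. Deviations from the group means correlated at -0.20 to 0.24 over 18 pairs of same-numbered arrays of different groups. Over 36 pairs of different number they correlated at -0.24 to 0.22. These values over all probe sets cannot tell whether same-numbered arrays were prepared together. The numbers were used only in the replicate block described below.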

Additional observations from a re-analysis of the deposited data

How the results depend on the processing

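The alternatives were cyclic loess scaling, leaving out probe sets with a mean under 5, 1 probe set per gene, only the 2 groups compared, trend and robust moderation, the replicate block, and leaving out each array. Over 720 values of the 10 genes in the 6 comparisons, 692 kept their side of the threshold without a counted change of sign. A further 14 lost the call, 8 gained it and 6 changed sign, none of the last called. A change of sign was counted only where both values differed from 0 after rounding. Main values that rounded to 0 were thus not counted. These were S100A9 (range -0.06 to 0.08) and S100A12 (range -0.05 to 0.06) with full-length Notch1, and S100A6 (range -0.02 to 0.03) between Notch1 L1601P+ΔP and full-length Notch1. The gains were those of S100A2 in the 3 NICD comparisons and of S100A10 with Notch1 L1601P+ΔP against vector and NICD against full-length Notch1 under trend and robust moderation, of S100A10 in the latter under cyclic loess, and of S100A7 with Notch1 L1601P+ΔP against vector and full-length Notch1 without its replicate 3. The sign changes were S100A2 (-0.01) with full-length Notch1 and S100A14 (0.02) between Notch1 L1601P+ΔP and full-length Notch1 under cyclic loess, and, on leaving out 1 array, S100A7 with full-length Notch1 (range -0.02 to 0.21), S100A6 with Notch1 L1601P+ΔP (range -0.03 to 0.02) and S100P between NICD and Notch1 L1601P+ΔP (range -0.06 to 0.1, below 0 in 2 cases). The called rises of S100A7, S100A8, S100A9, S100A12, S100A4 and S100P and the falls of S100A14 and S100A6 with NICD against vector, and those of S100A4 and S100P with Notch1 L1601P+ΔP, held under every alternative run.

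The count of S100 probe sets called with Notch1 L1601P+ΔP against vector was 2, and 4 under trend and robust moderation; against full-length Notch1 it was 2, and 1 under that moderation or with only the 2 groups, and 1 to 3 without single arrays. All probe sets called with Notch1 L1601P+ΔP against vector numbered 1307, 2318 under that moderation, 820 with only the 2 groups and 711 to 1033 without single arrays. Against full-length Notch1 the numbers were 892, 1732, 521 and 439 to 685, and 1366 without dim probe sets. For full-length Notch1 against vector 6 were called, 10 without dim probe sets and 29 under that moderation. With 1 probe set per gene, 19775 features were tested in place of 54613, so the numbers called do not compare directly. They were 5460, 5346 and 3923 for NICD against vector, full-length Notch1 and Notch1 L1601P+ΔP, in place of 10565, 9958 and 7124. The causes of these changes in count were not tested. With the replicate block, the members called numbered 11 with NICD against vector (S100A10 lost). They numbered 10 with NICD against full-length Notch1 and 7 with NICD against Notch1 L1601P+ΔP, and the other 3 counts were the same. Of 12 arrays, 3 deviated most like one of their own number. The median correlation of deviations was -0.05 over pairs of the same number and 0.02 over pairs of different number. Without single arrays, the NICD counts against vector ran from 10 to 12. Cyclic loess moved the share of higher calls from 46.1% to 57.8% with Notch1 L1601P+ΔP against vector, from 39.2% to 51.2% with NICD against full-length Notch1 and from 56.6% to 67.1% with Notch1 L1601P+ΔP against it.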
